A study of Ovis aries with 15 samples.

Results

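Gene expression in the longissimus dorsi, the long muscle of the back, was compared between sheep before and after birth. The comparison used all 15 arrays of the series, 9 fetal arrays against 6 postnatal arrays, and the phase of each array was taken from its stage label and not from any measured value. The question was which genes distinguish fetal from postnatal muscle, with weight on the genes whose 9 fetal signals all lay on one side of all 6 postnatal signals.

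The fetal arrays came from foetuses at 80 d, 100 d and 120 d of development, and the postnatal arrays from new born lambs at 150 d and older lambs at 230 d. Each stage had 3 animals with 1 array per animal, and different animals were sampled at each stage. All were cross-bred animals of the breeds Dorset, Suffolk and Rambouillet. Nearly all animals were male, with a single female each at the middle and last fetal stages, so that the only females lay in the fetal phase. Which arrays the females were is not in the labels. Sex was therefore not a covariate, and its part in the differences was not tested. The muscle was taken whole, and in such bulk tissue fewer cells of a type and less RNA per cell cannot be told apart. RNA of sheep was hybridised to an Affymetrix array designed for cattle, and differences in sequence between the species can lower a signal.

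Skeletal muscle fibres form before birth, and the contractile proteins of the embryo are replaced by adult forms as the fibres mature. Mitochondria, which make ATP with the respiratory chain, the citric acid cycle and fatty acid oxidation, become more abundant as muscle takes up posture and movement. Fetal muscle also holds dividing precursor cells in a connective tissue that is being laid down, and it is perfused by a blood with fetal haemoglobin.

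The values were MAS5 signals, which are intensities on a linear scale. They had been scaled to the same mean on each array, taken without the highest and lowest signals. After removal of control probe sets, a probe set was kept where its signal was 50 or more on at least 6 of the 15 arrays. This left 14244 of 24016 probe sets (59.3%). Because 6 is also the number of postnatal arrays, a gene with signal in the postnatal phase alone could pass. Differences are given as the postnatal mean minus the fetal mean of log2 signals, from limma with 5 stages, and a probe set or gene was called at a Benjamini-Hochberg adjusted p under 0.01. A gene was termed separated when every signal of one phase exceeded every signal of the other, and the gap is the fold between the nearest arrays of the phases, with signals under 50 set to 50. No test was attached to separation. Genes were named from 1 probe set each, that with the highest mean signal.

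The muscle label held on all arrays. Of 7 muscle fibre markers 5 were measured (ACTA1, CKM, MYH7, DES and TNNT3), and their summed signal was 49005 to 87231 on the fetal arrays and 103582 to 199076 on the postnatal arrays. Several properties of the arrays differed between the phases. The 100 brightest probe sets took 18.8% ± 1.51 (SD, n = 9) of the total signal on fetal arrays and 24.4% ± 2.20 (SD, n = 6) on postnatal arrays (two-sided exact permutation test, p = 0.0004, which is the smallest possible for 9 against 6, adjusted p = 0.00093 over 7 array measures). The ratio of 3′ to 5′ actin signal, a measure of RNA integrity, was 0.933 to 2.21 on the fetal and 0.852 to 1.04 on the postnatal arrays (exact permutation p = 0.0044, adjusted p = 0.0077). The corresponding ratio of GAPDH did not pass the test (exact permutation p = 0.18). The part of these measures in the differences between genes was not tested. No array was a copy of another, since the most alike pair differed by a mean of 0.347 on the log2 scale.

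Of the kept probe sets, 2065 (14.5%) were called higher and 3446 (24.2%) were called lower after birth, so that 37.5% of the calls were higher. Separation of all 9 from all 6 arrays was found for 1062 probe sets (7.46%) that were higher and 1663 (11.7%) that were lower after birth. The split between the directions depended on how the arrays were scaled. With array medians set equal, 2851 were called higher and 2522 lower (53.1% higher), and with quantile normalization 2566 and 2850 (47.4% higher). With scaling to the hybridisation controls, which are bacterial transcripts added to each sample, 632 were called higher and 7774 lower (7.52% higher). That scaling moved the median difference of all probe sets from -0.16 to -0.85 on the log2 scale, since the controls were brighter on the postnatal arrays (exact permutation p = 0.0004). The balance of higher and lower calls was thus not fixed by the data, and the differences below are relative to the authors' scaling, under which the median difference of all genes was -0.10.

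The kept probe sets with a single symbol named 7061 genes. Of these 1245 (17.6%) were called higher and 1678 (23.8%) lower after birth, and 711 (10.1%) were separated and higher and 819 (11.6%) separated and lower. The limma test called 1522 of the 1530 separated genes. Most gaps were narrow, with a median gap of 1.32-fold among genes that were higher and 1.20-fold among those that were lower. A gap of at least 2-fold was found for 93 genes that were higher and 58 that were lower after birth. Among the separated genes, 8 had every fetal array under a signal of 50 and 28 had every postnatal array under 50. The 8 could pass the filter only with all 6 postnatal arrays at 50 or more, so their direction and separation were fixed by the filter. The 28 in turn passed only through fetal arrays, so their direction was largely set by it. Genes named below as under 50 on most fetal arrays passed mainly through the postnatal arrays, and their calls are partly selected. Where a separated gene had further kept probe sets (390 genes), all of these were called in the same direction for 201 genes.

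Genes of energy metabolism made up most of the 15 genes with the widest gaps that were higher after birth. The widest gap belonged to CKMT2, the sarcomeric mitochondrial creatine kinase, with signals of 122 to 1781 (median 381) on the fetal arrays and 12995 to 23262 (median 18532) on the postnatal arrays. The nearest arrays of the phases were 7.30-fold apart and the difference was 5.38 ± 0.16 (SE, adjusted p = 2.0e-10) on the log2 scale. PDK4, the kinase that inhibits pyruvate dehydrogenase and so spares glucose, gave 39.6 to 252 (median 134) on the fetal arrays and 1724 to 18110.0 (median 10758) on the postnatal arrays. All postnatal arrays lay above all fetal arrays, of which 3 were under 50, and the difference was 6.23 ± 0.26 (SE, adjusted p = 2.5e-09). COQ10A, a coenzyme Q-binding protein of mitochondria, gave 161 to 326 (median 248) on the fetal arrays and 1966 to 3101 (median 2519.6) on the postnatal arrays, a 9.99-fold difference. On the log2 scale the difference was 3.32 ± 0.16 (SE, adjusted p = 7.2e-09), with an error that rests on the spread within stages. UCP3, a mitochondrial carrier of the uncoupling protein family in muscle, gave 38.1 to 231 (median 105) on the fetal arrays and 1239.8 to 3215 (median 1710.0) on the postnatal arrays, with 3 fetal arrays under 50. PGP, a phosphatase that clears side products of glycolysis, gave 116 to 400.1 (median 200.3) on the fetal arrays and 2062 to 9849.6 (median 3381) on the postnatal arrays. Their differences were 4.47 ± 0.22 and 4.09 ± 0.26 on the log2 scale, with gaps of 5.36-fold and 5.15-fold.

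**Figure D1:**
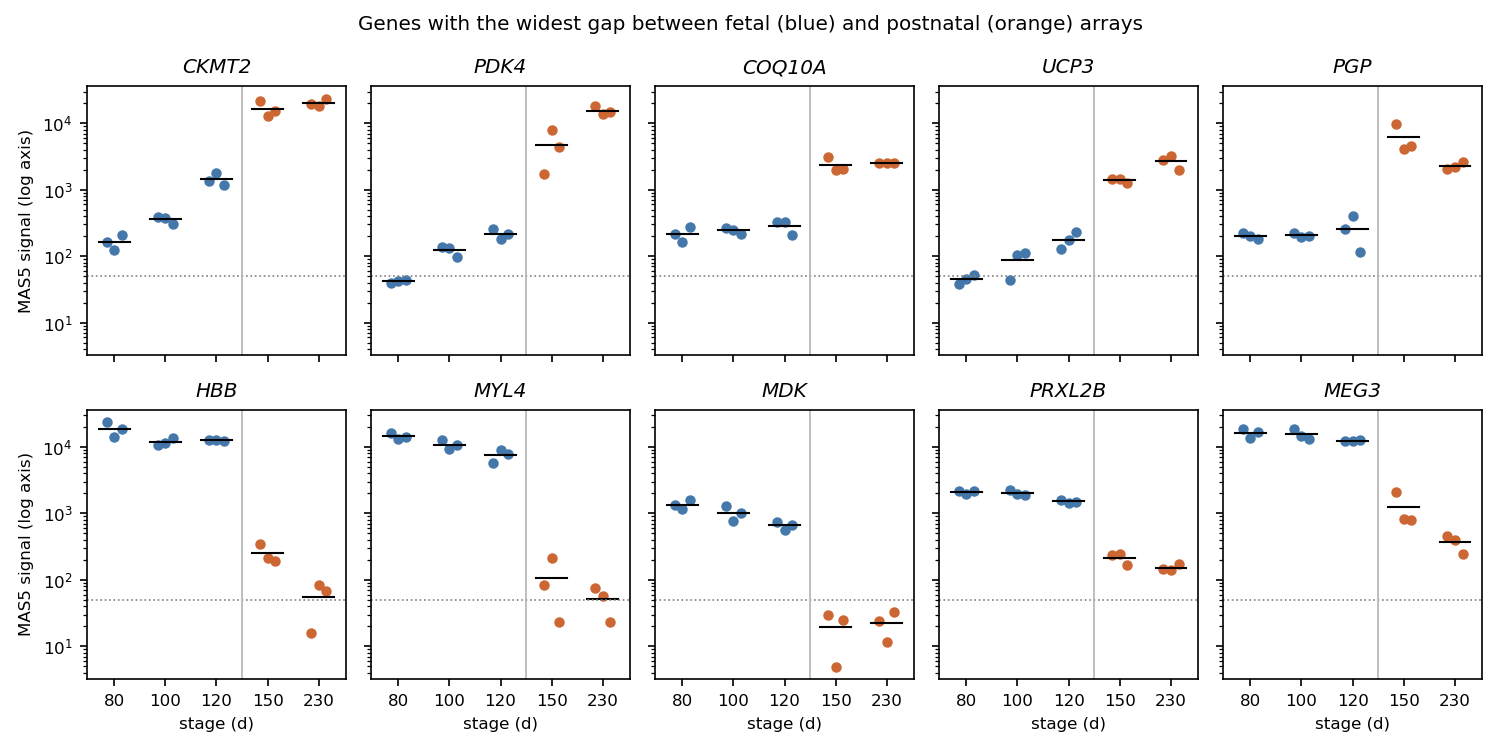
MAS5 signal (log axis) by developmental stage for the 5 genes with the widest gap that were higher after birth (upper panels) and the 5 that were lower (lower panels). Each dot is 1 array (blue fetal, orange postnatal), black bars are stage means and the dotted line marks a signal of 50. No fetal dot overlaps a postnatal dot in any panel, and the gap between the nearest dots is widest for HBB (30.9-fold) and MYL4 (27.2-fold).

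The other 10 of these genes were spread over the cytosol, the mitochondrion and the sarcomere. MYL3, the essential myosin light chain of slow and ventricular muscle, gave 39.5 to 561 (median 105) on the fetal arrays and 2595 to 12669 (median 8246) on the postnatal arrays, a difference of 5.67 ± 0.34 (SE, adjusted p = 4.8e-08). In the routes that carry reducing equivalents between the cytosol and the mitochondrion, GOT2, the mitochondrial aspartate aminotransferase, gave 333 to 1062 on fetal and 4687 to 6981 on postnatal arrays (3.41 ± 0.19 SE, adjusted p = 1.9e-08). GPD1, the cytosolic glycerol-3-phosphate dehydrogenase, gave 263 to 1080.1 and 4637 to 7708 (3.65 ± 0.15 SE, adjusted p = 2.5e-09). FBP2, the muscle fructose bisphosphatase, had fetal signals of 3.50 to 1782 that differed widely between arrays, 3 of them under 50, and postnatal signals of 6862 to 12189. PFKFB4, which sets the level of fructose 2,6-bisphosphate, was under 50 on 8 of 9 fetal arrays and 194 to 1306 on postnatal arrays. PFKFB4 thus passed the filter mainly through the postnatal arrays. Fuel entry into the mitochondrion was represented by MPC2, a subunit of the pyruvate carrier, with 673 to 1524 against 5406 to 8018 and a difference of 2.75 ± 0.13 (SE, adjusted p = 5.3e-09). ACADVL, the dehydrogenase that starts the oxidation of very long fatty acids, gave 257 to 887 against 3052 to 5085 (3.03 ± 0.17 SE, adjusted p = 2.4e-08). ECSIT, an assembly factor of complex I (2.44 ± 0.12), CHCHD10 of the intermembrane space (2.68 ± 0.11) and MCRIP2 (3.19 ± 0.15) completed the set, with gaps of 3.54-fold, 3.44-fold and 3.99-fold.

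Among the 15 genes with the widest gaps that were lower after birth were a globin, an embryonic myosin light chain, growth factors and cell surface proteins. HBB, the beta-globin of red blood cells, gave 10767 to 23753 (median 12778) on the fetal arrays and 15.7 to 348 (median 137) on the postnatal arrays. The gap was 30.9-fold and the difference -7.08 ± 0.31 (SE, adjusted p = 3.9e-09), while its other probe sets differed by -9.78 and -1.40, and globin genes are similar enough that their probe sets may share signal. MYL4, the embryonic and atrial myosin light chain, gave 5746 to 16083 (median 10611) on the fetal arrays and 22.8 to 211 (median 65.8) on the postnatal arrays, with 2 postnatal arrays under 50 and a difference of -7.49 ± 0.40 (SE, adjusted p = 1.6e-08). MDK, the heparin-binding growth factor midkine, gave 560.5 to 1577 (median 1024) on the fetal arrays and 4.90 to 32.4 (median 24.6) on the postnatal arrays. Every postnatal array was under 50, and the signal was at least 19.2-fold lower after birth (fitted difference -5.75 ± 0.36 SE, adjusted p = 6.5e-08). PRXL2B, a prostamide and prostaglandin F synthase, gave 1448 to 2280.0 (median 1932) on the fetal arrays and 139 to 244 (median 172) on the postnatal arrays, a difference of -3.37 ± 0.12 (SE, adjusted p = 8.1e-10). MEG3, an imprinted noncoding RNA expressed from the maternal allele, gave 12076 to 18436 (median 13608) on the fetal arrays and 245 to 2099 (median 626) on the postnatal arrays, a difference of -4.53 ± 0.22 (SE, adjusted p = 7.9e-09), and its 4 other probe sets were all called lower.

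Cell surface and matrix genes followed. COL21A1, a collagen associated with fibrils, gave 934 to 3774 on fetal and 115 to 221 on postnatal arrays (-3.73 ± 0.15 SE, adjusted p = 2.5e-09). The glypicans GPC4 and GPC3, heparan sulphate proteoglycans that bind growth factors, gave 688 to 1083 against 47.2 to 170.1 and 3087 to 6215 against 447 to 860.3, and their differences were -3.08 ± 0.14 and -2.97 ± 0.12. CDH11, a cadherin of mesenchymal cells, gave 867 to 1539 against 90.1 to 240.2 (-2.94 ± 0.12 SE, adjusted p = 2.5e-09). Signal receptors in the set were SMO, the transducer of Hedgehog signals, at 191 to 435 against 28.4 to 62.2, and TYRO3, a receptor tyrosine kinase, at 178 to 228 against 14.4 to 52.0. Both had 5 of 6 postnatal arrays under 50. Their fitted differences were -2.93 ± 0.14 and -2.96 ± 0.24, and with signals under 50 set to 50 they were 5.69-fold and 3.98-fold lower. The remaining genes were DAP, a death-associated protein (-2.76 ± 0.20), PLD3, a protein of the phospholipase D family (-3.35 ± 0.30, 4 of 6 postnatal arrays under 50), RASGRP2, an exchange factor for small GTPases (-2.53 ± 0.20), and RGN, the calcium-binding protein regucalcin (-3.86 ± 0.15). The call for RGN rested on its brighter probe set, since the other differed by 0.41 and was not called.

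Under the authors' scaling the genes of the mitochondrial respiratory chain were higher after birth almost without exception. Of 80 measured genes of complexes I to V and their assembly (89 listed), 74 were called higher, 1 was called lower and 5 were not called, against 17.6% of all genes called higher. All 9 fetal arrays lay below all 6 postnatal arrays for 68 of the 80, against 10.1% of all genes. The median difference was 1.74 for complex I and 1.52 for complexes II to V. Under scaling to the hybridisation controls 29 of 38 members for complex I were called higher and 1 lower, with a median of 1.05. For complexes II to V 30 of 42 were then called higher and 3 lower, with a median of 0.83. In complex I, which passes electrons from NADH, NDUFS1 gave 726 to 1604 (median 996) on the fetal arrays and 5230.4 to 7323 (median 5948) on the postnatal arrays, and NDUFS3 gave 1213 to 2065 against 6187 to 8385. Their differences were 2.53 ± 0.13 (SE, adjusted p = 8.4e-09) and 2.23 ± 0.10 (SE, adjusted p = 5.0e-09). UQCRC1, a core subunit of the bc1 complex, gave 1411 to 3115 (median 1992) on the fetal arrays and 9318 to 13714 (median 10653) on the postnatal arrays, and CYC1, its cytochrome c1, 2484 to 5097 against 12152 to 18209.8. These genes were 5.46-fold and 4.54-fold higher. The exceptions, named after their values were seen, were NDUFA5 (-0.09, with other probe sets from 1.41 to 2.51), NDUFS5 (0.70), COX7A2 (-0.19), COX8A (0.12) and COX15 (-0.30), which were not called, and COX6A1, which was called lower (-1.16, with another probe set at 2.54).

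Fuel oxidation upstream of the chain followed the same direction. In the citric acid cycle and pyruvate oxidation, 23 of 26 measured members (32 listed) were called higher (88.5%, against 17.6% of all genes). All 23 were separated, none was called lower, and the median difference was 1.99. Under scaling to the hybridisation controls 20 were called higher and 1 lower. PDHA1, a catalytic subunit of pyruvate dehydrogenase, gave 773 to 2204 (median 1224) on the fetal arrays and 6712 to 13265 (median 10168) on the postnatal arrays, and was 7.56-fold higher (2.92 ± 0.14 SE, adjusted p = 6.1e-09). Its inhibitor PDK4 was thus higher in the same muscles as the enzyme. PDK3, PDP1 and PC were not called (0.39, -0.01 and 0.56). In fatty acid oxidation, 25 of 29 measured members (33 listed) were called higher (86.2%, against 17.6% of all genes) and none lower. Separation was found for 16, and the median was 1.40. Under scaling to the hybridisation controls 17 were called higher and none lower. SLC25A20, the carnitine carrier, gave 273 to 487 on fetal and 1624 to 2705 on postnatal arrays, FABP3, the fatty acid-binding protein of heart and muscle, 834 to 1424 and 4626 to 8318, and ACADM, the medium chain dehydrogenase, 134 to 302 and 898 to 2349.6. Each of these genes was separated, by 3.34-fold, 3.25-fold and 2.98-fold. LPL, ACADL, ACADS and ECHS1 were not called.

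Glycolysis and glycogen turnover were higher for most members, with exceptions. Of 33 measured members (43 listed), 20 were called higher (60.6%) and 2 lower (6.06%), against 17.6% and 23.8% of all genes. Separation was found for 18, and the median was 1.89. Under scaling to the hybridisation controls 19 were called higher and 8 lower. PYGM, the muscle glycogen phosphorylase that releases glucose from glycogen, gave 2279 to 5950.5 (median 3161) on the fetal arrays and 14994 to 38429 (median 25933) on the postnatal arrays, a difference of 2.84 ± 0.15 (SE, adjusted p = 1.3e-08). The members called lower under the authors' scaling were SLC2A1, the basal glucose transporter (-1.61), and PHKG2, a liver-type subunit of phosphorylase kinase (-0.92). The call of PHKG2 was lost when any of 12 arrays was left out, and that of SLC2A1 without the 80 d stage (-1.31, adjusted p = 0.017). Among genes of the phosphagen and purine energy pool, 10 of 16 measured members (19 listed) were called higher (62.5%) and 3 lower (18.75%). Among all genes these shares were 17.6% and 23.8%. Separation was found for 8, and the median was 1.25. Besides CKMT2, ADSS1, an enzyme of AMP synthesis in muscle, gave 61.3 to 321 against 634 to 1382 (2.31 ± 0.24 SE, adjusted p = 4.6e-06), and NAMPT, an enzyme of NAD synthesis, 133 to 298 against 528 to 1019.6 (1.86 ± 0.16 SE, adjusted p = 1.0e-06). The lower members were CKB, the brain-type creatine kinase (-2.14), AMPD2, an AMP deaminase (-1.56), and GATM, of creatine synthesis (-1.32). Each of these calls rested on a stage, since CKB and AMPD2 were not called without the 80 d stage (-1.42, adjusted p = 0.025 and -1.13, adjusted p = 0.054) and GATM changed sign without the 230 d stage (0.33, adjusted p = 0.40).

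Many muscle proteins have an adult muscle form and a counterpart encoded by a separate gene, and 33 such pairs were listed. The counterpart was an early form in some pairs and a slow-fibre or more broadly expressed form in others. The form listed as adult was not specific to muscle in every pair, with ATP5MC1, VDAC1 and IGF1 as examples. Both forms were measured in 24 pairs. The form listed as adult was called higher after birth for 21 of 22 genes, 17 of them separated, the exception being IGF1. This is thus not a count of muscle isoforms alone. The counterparts did not mirror this. Of 24 measured, 9 were called lower (4 separated), 4 were called higher and 11 were not called. The 4 called higher were the slow forms TNNC1 and ATP2A2, and ATP5MC2 and VDAC3, so the counts are not a count of embryonic forms. The counterpart was called lower and the adult form higher for COX6A1 with COX6A2, CKB with CKM, CHRNG with CHRNE, MYH3 with MYH1, MYL4 with MYL3, TNNT2 with TNNT3, and for both SLC25A5 and SLC25A6 with SLC25A4.

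**Figure D2:**
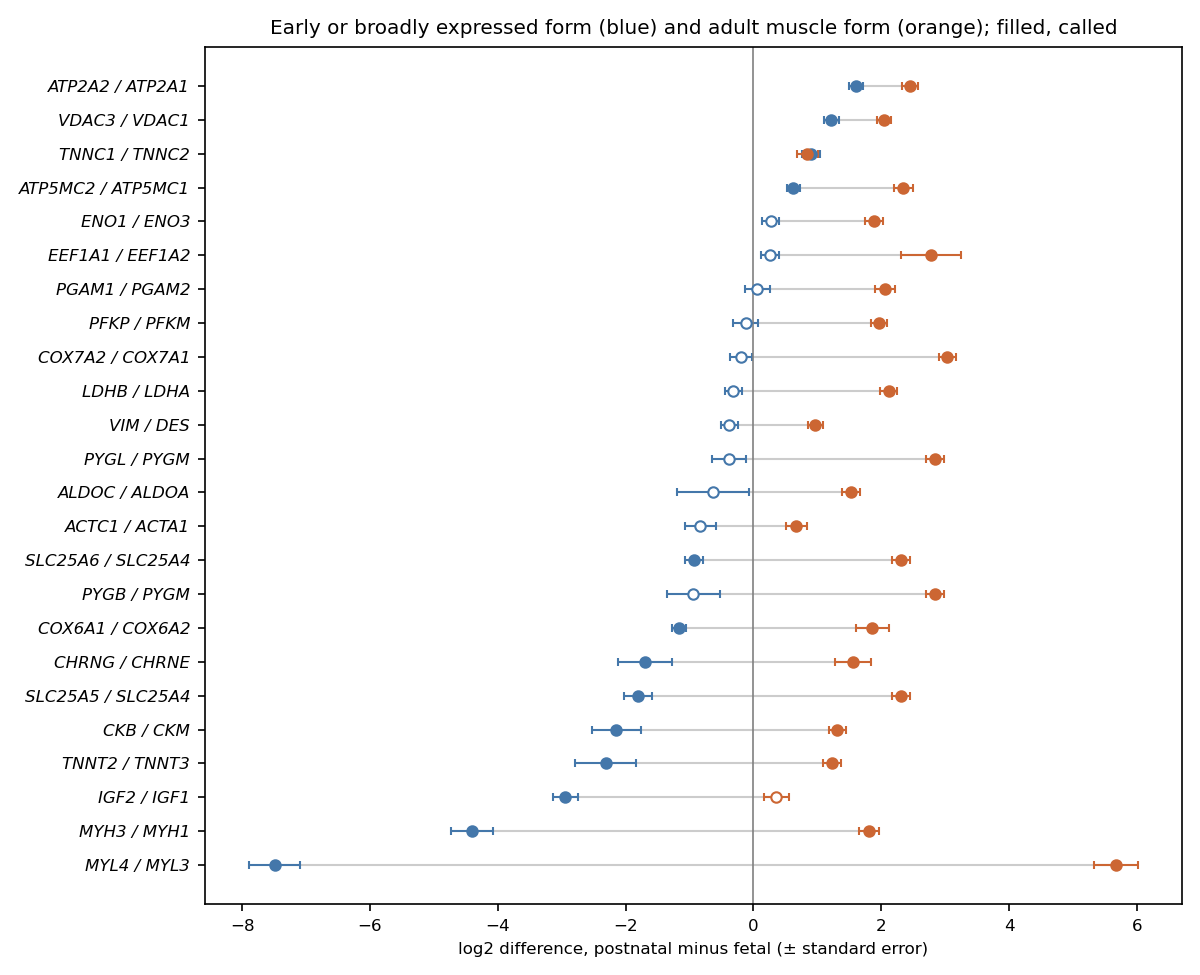
Difference in log2 signal, postnatal minus fetal (± SE), of the form listed as adult (orange) and its counterpart (blue) in 24 pairs of related genes. The counterpart is an early, slow-fibre or more broadly expressed form. Filled symbols were called at an adjusted p under 0.01. All adult forms except IGF1 were called higher, while the counterparts range from -7.49 for MYL4 to 1.61 for ATP2A2. The differences of ATP5MC2, ACTA1 and EEF1A1 turned negative under quantile normalization and under scaling to the hybridisation controls. That of TNNC2 turned negative under quantile normalization, and those of ENO1, PGAM1 and IGF1 under scaling to the hybridisation controls. The difference of PFKP turned positive under quantile normalization and with equal array medians.

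The pair of essential myosin light chains had the largest opposite differences, with MYL4 at -7.49 ± 0.40 and MYL3 at 5.67 ± 0.34. Among cytochrome oxidase subunits, COX7A1, the heart and muscle form, gave 525 to 3681 (median 1214) on the fetal arrays and 8074 to 11752 (median 10455) on the postnatal arrays and was called higher (3.04 ± 0.13 SE, adjusted p = 2.6e-09), while COX7A2, the liver form, was not called (-0.19 ± 0.17 SE, adjusted p = 0.36). SLC25A4, the muscle form of the mitochondrial carrier that exchanges ADP for ATP, gave 3431 to 9893 against 21147 to 35774 (2.32 ± 0.14 SE, adjusted p = 5.3e-08), and SLC25A5, a form of dividing cells, gave 822 to 2869.6 against 226 to 763 (-1.81 ± 0.21 SE, adjusted p = 1.5e-05). This pair was separated in opposite directions. The creatine kinases CKM and CKB were called in opposite directions, at 1.32 ± 0.13 and -2.14 ± 0.38, although another probe set of CKM differed by 0.00. In the acetylcholine receptor, the adult subunit CHRNE was higher (1.56 ± 0.29 SE, adjusted p = 5.4e-04) and the fetal subunit CHRNG was lower (-1.70 ± 0.42 SE, adjusted p = 0.0043), neither of them separated. The call of CHRNG was lost without 150 d replicate 1 (-1.67, adjusted p = 0.011) or 150 d replicate 2 (-1.67, adjusted p = 0.011), without any stage but 230 d (adjusted p up to 0.037) and without a filter on low signals. That of CHRNE was lost without the 80 d stage (0.98, adjusted p = 0.036) or the 230 d stage (1.45, adjusted p = 0.011) and under scaling to the hybridisation controls. Neither was called with stage as a random block. EEF1A2, the muscle and nerve form of the elongation factor, was separated and higher (2.78 ± 0.47 SE, adjusted p = 2.7e-04) with 7 of 9 fetal arrays under 50 and no call with stage as a random block, and EEF1A1 was not called (0.27 ± 0.14 SE, adjusted p = 0.14). In the glycolytic pairs ENO1 with ENO3, PGAM1 with PGAM2, PFKP with PFKM, LDHB with LDHA and ALDOC with ALDOA, each adult form was separated and higher. Their differences were 1.89, 2.07, 1.96, 2.12 and 1.53, and no counterpart was called. One probe set of LDHA went the other way, at -0.76. The slow forms TNNC1 and ATP2A2 were separated and higher, at 0.90 and 1.61, with a further ATP2A2 probe set at -0.05. Their fast partners TNNC2 and ATP2A1 were also called higher, TNNC2 (0.84) without separation. Neither TNNC1 nor TNNC2 was called without the 230 d stage (0.68, adjusted p = 0.011 and 0.60, adjusted p = 0.029), under quantile normalization, where the sign of TNNC2 reversed, or under scaling to the hybridisation controls.

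Members of the thick filament were called in both directions. Of 12 measured members (22 listed), 6 were called higher (50%) and 3 lower (25%), against 17.6% and 23.8% of all genes. The share of lower calls was thus near that of all genes. The median of 0.62 changed sign under quantile normalization (-0.02) and under scaling to the hybridisation controls (-0.07). The lower members were the early forms MYH3, MYH8 and MYL4. MYH8, the perinatal myosin heavy chain, gave 12699.9 to 16035 (median 13808) on the fetal arrays and 57.5 to 4412 (median 277) on the postnatal arrays, and although it was separated its postnatal signals spanned a wide range (-5.25 ± 0.43 SE, adjusted p = 5.4e-07). MYH3, the embryonic heavy chain, gave 9207 to 17048 (median 12629) on the fetal arrays and 66.3 to 9293 (median 827) on the postnatal arrays and was called lower (-4.40 ± 0.33 SE, adjusted p = 2.8e-07), but the phases overlapped because the highest postnatal signal reached the lowest fetal one. MYH7, the slow heavy chain, gave 5234 to 14851 (median 6817) on the fetal arrays and 21360.2 to 38839.9 (median 25644) on the postnatal arrays and was separated (1.71 ± 0.16 SE, adjusted p = 2.2e-06). MYH1 was called higher (1.80 ± 0.16), but its 7 other probe sets ranged from -7.02 to 4.66, and the heavy chain genes are so alike that no value of MYH1 is certain.

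In the thin filament 10 of 18 measured members (21 listed) were called higher (55.6%) and 3 lower (16.7%). Among all genes these shares were 17.6% and 23.8%. The median of 0.76 became -0.08 under quantile normalization. Under scaling to the hybridisation controls 3 were called higher and 7 lower. TMOD4, a tropomodulin that caps the actin filament in muscle, gave 278 to 5778 (median 2566) on the fetal arrays and 11183 to 24137 (median 19441) on the postnatal arrays, and TNNT1, slow troponin T, 2292 to 9150.3 against 14601 to 26714. Both were separated, with differences of 3.52 ± 0.16 (SE, adjusted p = 5.8e-09) and 2.05 ± 0.17 (SE, adjusted p = 6.1e-07). The members called lower under the authors' scaling were TNNT2, the cardiac and embryonic troponin T (-2.31), and the tropomyosins TPM1 (-1.01) and TPM3 (-0.40). TNNT2 was not called without the 80 d stage (-1.76, adjusted p = 0.026), TPM1 not without the 150 d stage (-0.89, adjusted p = 0.018), and TPM3 not when any of 13 arrays was left out. The actins ACTC1, ACTB, ACTG1 and ACTA2 were not called. The rise of ACTA1, skeletal actin, was small (0.67 ± 0.16 SE, adjusted p = 0.0031), the phases overlapped, the call was lost without the 230 d stage (0.40, adjusted p = 0.12), and the sign changed under quantile normalization and under scaling to the hybridisation controls. Of the Z-disc and its scaffold 16 of 17 measured members (28 listed) were called higher (94.1%, against 17.6% of all genes). Under scaling to the hybridisation controls 9 were called higher and none lower. Under the authors' scaling the median was 1.35 and 8 were separated. Examples were LDB3 (2.11 ± 0.18 SE, adjusted p = 7.3e-07) and ACTN2 (1.61 ± 0.13 SE, adjusted p = 6.3e-07), which anchor actin filaments, and only CAPN3 was not called (0.22).

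For calcium handling 8 of 9 measured members (22 listed) were called higher (88.9%), against 17.6% of all genes. Separation was found for 3, and the list median was 0.93. Under scaling to the hybridisation controls 3 were called higher and 1 lower, with a median of 0.24. ATP2A1, the calcium pump of fast fibres, gave 1842 to 9680.3 (median 3976) on the fetal arrays and 16110.0 to 30019 (median 22277) on the postnatal arrays, and PLN, the inhibitor of the slow-fibre pump, 75.3 to 943 (median 234) on the fetal arrays and 1433 to 2661 (median 1714) on the postnatal arrays. These differed by 2.45 ± 0.13 (SE, adjusted p = 1.2e-08) and 2.74 ± 0.20 (SE, adjusted p = 2.9e-07). At the neuromuscular junction the direction was opposite. Of 8 measured members (14 listed), 6 were called lower (75%), against 23.8% of all genes, and only CHRNE was called higher. The median was -1.22. CHRND, a subunit of the acetylcholine receptor, gave 123 to 279 against 17.4 to 118, which was the only separation in that list (-1.66 ± 0.19 SE, adjusted p = 1.2e-05). Of the regulators of the muscle lineage, 4 of 14 measured members (29 listed) were called lower and 1 higher, a share of lower calls close to the 23.8% of all genes. MSTN, which restrains muscle growth, gave 326 to 862 (median 503) on the fetal arrays and 78.1 to 211 (median 160.2) on the postnatal arrays, and TCF12, a partner of the myogenic factors, 1521 to 2983 against 668 to 1049.7. Both were separated (-1.76 ± 0.24 SE, adjusted p = 5.2e-05 and -1.28 ± 0.11 SE, adjusted p = 1.1e-06). MYF6, the myogenic factor of mature fibres, was higher (1.13 ± 0.15 SE, adjusted p = 4.9e-05), a call lost without the 230 d stage (0.62, adjusted p = 0.029). MYOG, the factor of myoblast differentiation, was lower (-0.91 ± 0.25 SE, adjusted p = 0.0073), a call lost when any of 10 arrays was left out.

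Most measured proteins that build the mitochondrion were called higher after birth, except under scaling to the hybridisation controls. Of the mitochondrial ribosomal proteins, 42 of 63 measured members (76 listed) were called higher (66.7%, against 17.6% of all genes) and 1 lower. Separation was found for 32, and the median was 0.88. Under scaling to the hybridisation controls 9 were called higher and 6 lower, with a median of 0.19. MRPL37 gave 404 to 697 against 1506 to 2170.1 (1.82 ± 0.11 SE, adjusted p = 6.5e-08) and MRPL35 313 to 496 against 851 to 2131 (1.80 ± 0.16 SE, adjusted p = 1.2e-06). The lower one, MRPL52, lost its call when any of 13 arrays was left out. Of the import machinery 19 of 29 measured members (32 listed) were called higher (65.5%, against 17.6% of all genes) and none lower. Their median of 0.69 was 0.00 (4 higher) under scaling to the hybridisation controls. CHCHD3, which holds the cristae junctions, gave 384 to 849 against 1356 to 2659 (1.85 ± 0.17 SE, adjusted p = 1.5e-06). Of the cytosolic ribosome 11 of 61 measured members (76 listed) were called higher, a share close to the 17.6% of all genes, and 2 lower. Their median of 0.22 turned to -0.38 under quantile normalization, where 1 was called higher and 34 lower, and to -0.47 under scaling to the hybridisation controls, so that no direction can be given for this family. Of the proteasome 24 of 35 measured members (41 listed) were called higher (68.6%) and 1 lower (2.86%), against 17.6% and 23.8% of all genes. The median of 0.59 was -0.10 under scaling to the hybridisation controls, where 1 was called higher and 4 lower.

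Of the regulators of mitochondrial number and shape, 7 of 13 measured members (23 listed) were not called. The others were 5 called higher (38.5%) and 1 lower (7.69%), against 17.6% and 23.8% of all genes. Their median of 0.36 was -0.33 under scaling to the hybridisation controls, where 2 were called higher and 3 lower. PERM1, a muscle coregulator of mitochondrial genes, gave 15.4 to 113 (median 54.5) on the fetal arrays and 188 to 626 (median 524) on the postnatal arrays and was separated (3.19 ± 0.41 SE, adjusted p = 2.7e-05), whereas its other probe set differed by 0.74 without a call. OPA1, which fuses inner membranes, gave 118 to 208 against 306 to 698 (1.43 ± 0.20 SE, adjusted p = 4.7e-05). PPARGC1A, the coactivator known as PGC-1 alpha, had signals of 240.5 to 526 (median 341) on the fetal arrays and 256 to 515 (median 322) on the postnatal arrays, the phases overlapped, and the difference was -0.08 ± 0.14 (SE, adjusted p = 0.65). SIRT1, a deacetylase that acts on that coactivator, was called lower (-1.25 ± 0.28 SE, adjusted p = 0.0023), but not without the 150 d stage (-1.01, adjusted p = 0.030).

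**Figure D3:**
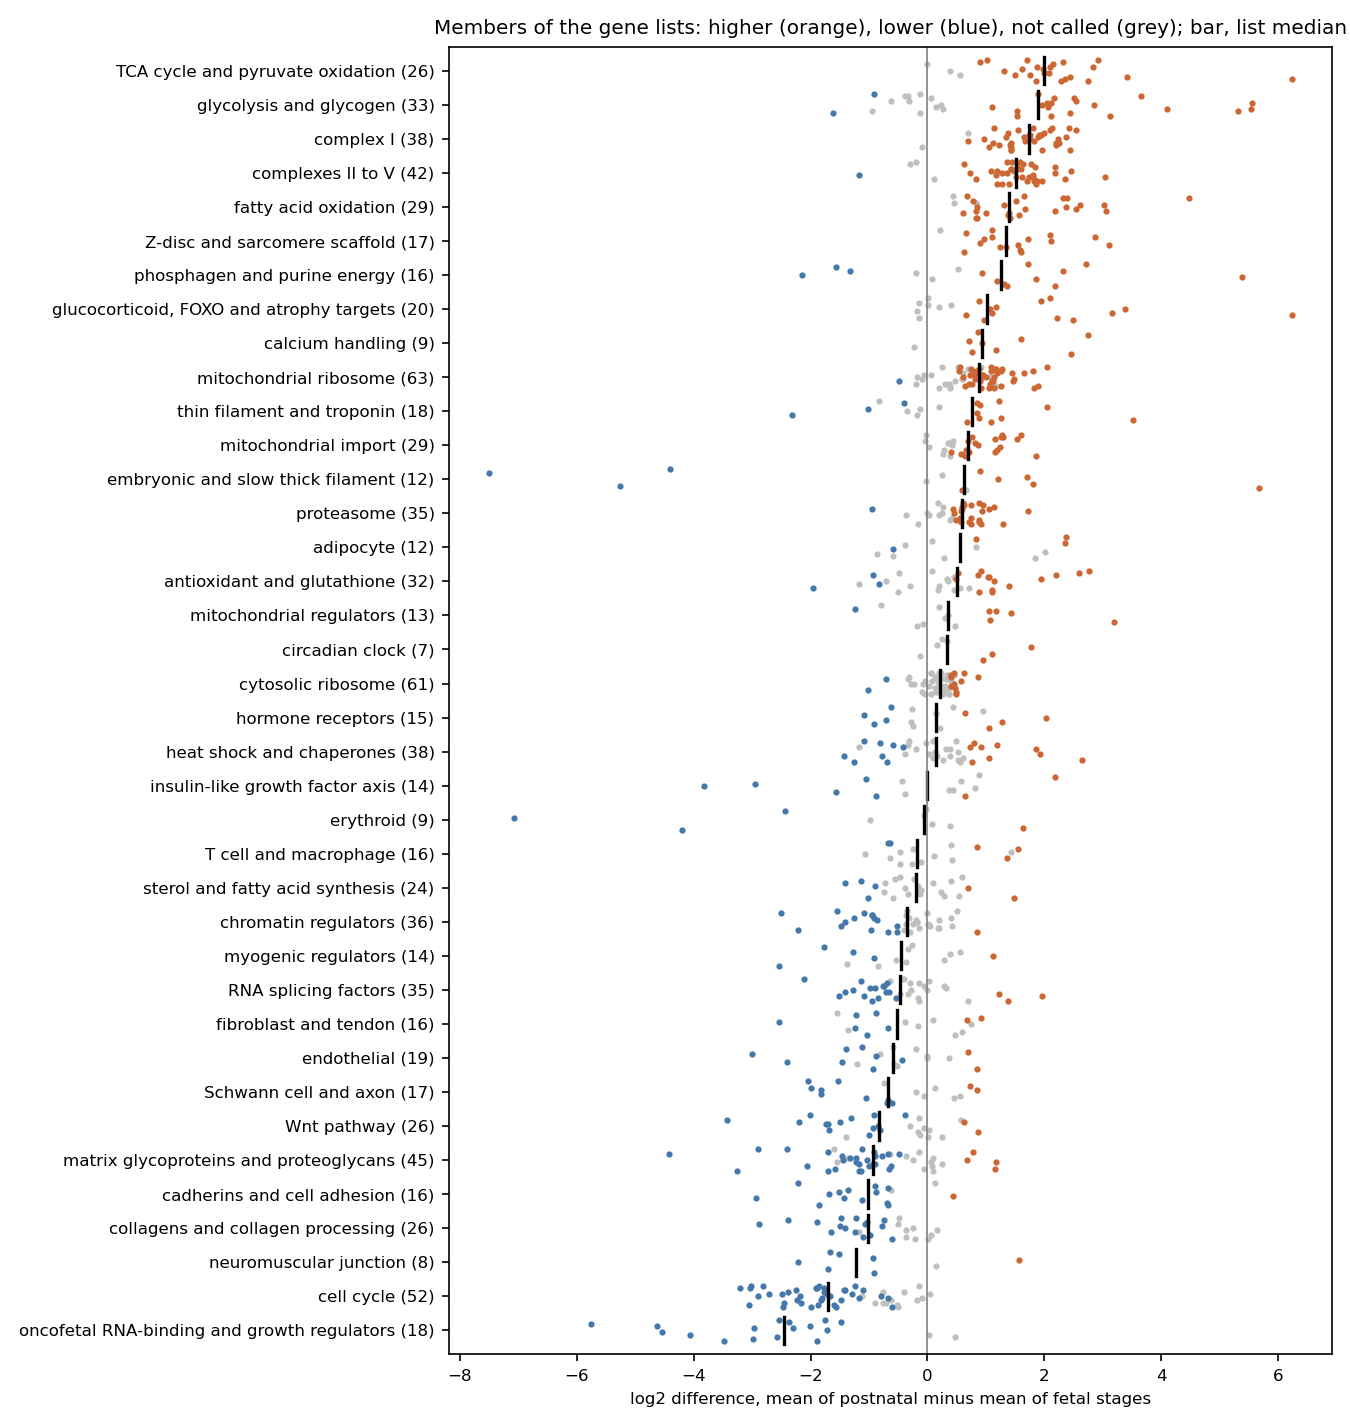
Difference in log2 signal, postnatal minus fetal, of every measured member of 38 gene lists (orange called higher, blue called lower, grey not called), with the list median as a black bar and the number of measured members in brackets. Members of the respiratory chain, citric acid cycle and Z-disc lists lie almost wholly to the right and those of the cell cycle and oncofetal lists to the left. The medians of the thick and thin filament, cytosolic ribosome, proteasome, mitochondrial regulator, insulin-like growth factor, erythroid, adipocyte, T cell, clock, hormone receptor, antioxidant and heat shock lists changed sign under at least 1 other scaling.

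Genes of cell division were lower after birth. Of 52 measured members (78 listed), 39 were called lower and none higher, against 23.8% of all genes called lower, with a median of -1.70 and 14 separated. HMGN2, a nucleosome-binding protein, gave 4456 to 7397 (median 5712) on the fetal arrays and 1555 to 1967 (median 1769) on the postnatal arrays and HMGB2, a chromatin protein of dividing cells, 2118 to 3473 (median 2909.6) on the fetal arrays and 668 to 1346 (median 705) on the postnatal arrays. Their differences were -1.72 ± 0.10 (SE, adjusted p = 3.7e-08) and -1.85 ± 0.16 (SE, adjusted p = 1.0e-06). CDK4, the cyclin-dependent kinase of the G1 phase, gave 505 to 878 against 191 to 392 (-1.29 ± 0.11 SE, adjusted p = 6.8e-07). An inhibitor of division moved in the same direction. CDKN1C, the imprinted inhibitor of cyclin-dependent kinases, gave 5666 to 10804 (median 8014) on the fetal arrays and 1492 to 2684 (median 2252) on the postnatal arrays and was separated and lower (-1.90 ± 0.15 SE, adjusted p = 3.3e-07). CCNB1 and CCND1, cyclins of mitosis and of G1, were called lower (-2.45 ± 0.44 and -2.90 ± 0.36), with 5 and 4 of 6 postnatal arrays under 50, and their phases overlapped. CCNB1 was not called without the 230 d stage (-1.62, adjusted p = 0.013).

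Genes of the extracellular matrix were also lower, though not the most abundant fibrillar collagens in the same way. Of the collagens and their processing enzymes, 16 of 26 measured members (41 listed) were called lower (61.5%, against 23.8% of all genes). None was called higher, 5 were separated, and the median was -1.01. COL4A1, of basement membranes, gave 3921 to 6310.2 (median 5640.0) on the fetal arrays and 1894 to 3429 (median 2294) on the postnatal arrays (-1.11 ± 0.14 SE, adjusted p = 1.9e-05), and SERPINH1, the collagen chaperone, 3094 to 5557 against 694 to 2677 (-1.47 ± 0.14 SE, adjusted p = 1.9e-06). The abundant fibrillar collagens overlapped between the phases. COL3A1 gave 16994 to 25838 (median 20720.1) on the fetal arrays and 13185 to 21831 (median 18054) on the postnatal arrays and was not called (-0.25 ± 0.15 SE, adjusted p = 0.17), and COL1A1 gave 9604 to 15674 (median 13419) on the fetal arrays and 3863 to 15730.2 (median 7122) on the postnatal arrays and was called lower (-0.77 ± 0.19 SE, adjusted p = 0.0041), a call lost without the 230 d stage (-0.06, adjusted p = 0.87) and without any of 3 single arrays, 150 d replicate 2, 230 d replicate 1 or 230 d replicate 3 (adjusted p from 0.010 to 0.013). Among matrix glycoproteins and proteoglycans, 28 of 45 measured members (53 listed) were called lower (62.2%) and 4 higher (8.89%). These shares were 23.8% and 17.6% among all genes, and 17 members were separated and lower. VCAN, the proteoglycan versican of embryonic matrix, gave 559.8 to 3162 (median 1507) on the fetal arrays and 127 to 189 (median 153) on the postnatal arrays, ASPN, asporin, 1285 to 2522 (median 1603) on the fetal arrays and 146 to 445 (median 232) on the postnatal arrays, and FN1, fibronectin, 1436 to 2650.1 (median 2203) on the fetal arrays and 343 to 715 (median 539) on the postnatal arrays. All were separated, with differences of -3.26 ± 0.14 (SE, adjusted p = 2.5e-09), -2.90 ± 0.15 (SE, adjusted p = 1.2e-08) and -2.07 ± 0.16 (SE, adjusted p = 3.6e-07). POSTN, periostin, varied widely within each phase, at 1000.0 to 8202 before and 56.3 to 535 after birth, and was still separated (-4.43 ± 0.41 SE, adjusted p = 1.8e-06). The members called higher were TIMP4, an inhibitor of metalloproteinases that was separated (1.15), and PRELP, COMP and CCN2 (1.17, 0.68 and 0.78), which were not. PRELP lost its call when any of 11 arrays was left out, CCN2 when any of 12 was, and COMP without the 230 d stage (0.59, adjusted p = 0.038). The sign of COMP was reversed under scaling to the hybridisation controls.

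Adhesion and growth signals of the embryo showed the same direction. Of cadherins and other adhesion molecules, 13 of 16 measured members (38 listed) were called lower (81.25%) and 1 higher (6.25%). Among all genes these shares were 23.8% and 17.6%. In the list 7 were separated, and the median was -1.01. ITGB1, the beta chain of most integrins, gave 4279.7 to 5336 against 2175 to 3555, and this 1.59-fold difference was separated (-0.67 ± 0.10 SE, adjusted p = 7.3e-05). Without the 230 d stage it was not called (-0.42, adjusted p = 0.017). ITGB5 was called higher (0.44) with another probe set at -0.54, lost its call when any of 12 arrays was left out, and reversed its sign under quantile normalization and under scaling to the hybridisation controls. In the Wnt pathway 14 of 26 measured members (55 listed) were called lower (53.8%) and 2 higher (7.69%). The shares of all genes were 23.8% and 17.6%, and 7 members were separated and lower. The ligand WNT11 gave 145 to 309.6 against 15.1 to 109 (-1.68 ± 0.33 SE, adjusted p = 9.0e-04), the receptor ROR2 64.9 to 208 against 22.3 to 53.1 (-1.69 ± 0.22 SE, adjusted p = 3.5e-05, 5 of 6 postnatal arrays under 50), and the planar polarity protein PRICKLE1 116 to 191 against 4.20 to 66.4 (-2.01 ± 0.44 SE, adjusted p = 0.0019). PRICKLE1 was not called without the 80 d stage (-1.93, adjusted p = 0.012). The cytoplasmic members DVL1 and AXIN1 were called higher (0.87 and 0.63), but not without the 230 d stage (0.82, adjusted p = 0.011 and 0.35, adjusted p = 0.13), and AXIN1 reversed its sign under scaling to the hybridisation controls. The effector CTNNB1, beta-catenin, was lower by a small amount (-0.38 ± 0.10 SE, adjusted p = 0.0069), a call lost when any of 12 arrays was left out.

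Members of the insulin-like growth factor axis were called in both directions or not at all. Its 14 measured members (20 listed) held 5 called lower (35.7%) and 2 called higher (14.3%), against 23.8% and 17.6% of all genes. The median of -0.02 became 0.17 with equal array medians and 0.10 under quantile normalization. The fetal ligand IGF2 gave 11252 to 19409.9 (median 13848) on the fetal arrays and 749.9 to 6001 (median 1826) on the postnatal arrays, and was separated and lower (-2.94 ± 0.19 SE, adjusted p = 8.3e-08), although 1 of its 3 other probe sets differed by 0.29. IGF2R, the receptor that clears this ligand, gave 3974 to 6272 (median 4841) on the fetal arrays and 1323 to 2097 (median 1648) on the postnatal arrays (-1.56 ± 0.11 SE, adjusted p = 1.4e-07). IGFBP2, a binding protein, gave 105 to 663 (median 318) on the fetal arrays and 5.80 to 73.7 (median 18.0) on the postnatal arrays, with 4 of 6 postnatal arrays under 50 (-3.83 ± 0.27 SE, adjusted p = 1.7e-07). IGFBP4 and IGFBP6 were also separated and lower (-1.05 and -0.87). Neither IGF1 (0.36 ± 0.19 SE, adjusted p = 0.13) nor the receptor IGF1R (0.88 ± 0.45 SE, adjusted p = 0.12) was called. IGFALS, which stabilises the circulating complex, was separated and higher (2.18 ± 0.51 SE, adjusted p = 0.0028) with 7 of 9 fetal arrays under 50. GHR, the growth hormone receptor, was called higher (0.65). Neither was called without the 230 d stage (1.97, adjusted p = 0.031 and 0.34, adjusted p = 0.093), and the sign of GHR was reversed under scaling to the hybridisation controls.

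Genes known as fetal in many tissues were lower in nearly every case. Of 18 measured members (29 listed), 16 were called lower (88.9%), against 23.8% of all genes, and none higher. Separation was found for 15, and the median was -2.45. The list includes MDK, MEG3 and GPC3, described above, and was drawn up with earlier results of these data known. MEST, an imprinted gene expressed from the paternal allele, gave 2909 to 9379 (median 5764) on the fetal arrays and 206 to 1008 (median 582) on the postnatal arrays, a difference of -3.48 ± 0.13 (SE, adjusted p = 1.2e-09). MARCKSL1, an actin-binding protein, gave 923 to 2146 (median 1468) on the fetal arrays and 84.7 to 339 (median 198) on the postnatal arrays (-2.98 ± 0.23 SE, adjusted p = 3.3e-07), and IGF2BP3, an RNA-binding protein of embryonic tissue, 95.6 to 244 against 8.50 to 79.6 (-2.36 ± 0.31 SE, adjusted p = 3.1e-05), with 5 of 6 postnatal arrays under 50. Other imprinted genes of the list were PLAGL1 (-2.30 ± 0.16), PEG3 (-1.76 ± 0.16), SGCE (-1.47 ± 0.11) and DLK1 (-2.54 ± 0.18), all separated, although another probe set of DLK1 differed by -0.35 without a call. HMGA1 and CRABP2 were not called.

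Among all genes 23.8% were called lower and 17.6% higher after birth. The shares were 41.7% lower and 2.78% higher among measured regulators of chromatin, and 45.7% lower and 8.57% higher among splicing factors. Of chromatin regulators, 15 of 36 measured members (58 listed) were called lower and 1 higher, 9 separated. SMARCA1, a chromatin remodeller of the ISWI family, gave 1322 to 2597 (median 2126) on the fetal arrays and 239.9 to 533 (median 331) on the postnatal arrays (-2.50 ± 0.13 SE, adjusted p = 1.1e-08), and EZH2, the methyltransferase of the polycomb complex, 241 to 775 (median 493) on the fetal arrays and 44.3 to 172 (median 100.2) on the postnatal arrays (-2.22 ± 0.20 SE, adjusted p = 1.6e-06). SMARCD3, a SWI/SNF subunit of muscle and heart, was the member called higher and was separated, at 1209.9 to 1608 against 2142 to 2967 (0.84 ± 0.11 SE, adjusted p = 2.9e-05). Of splicing factors 16 of 35 measured members (49 listed) were called lower and 3 higher. SRSF5 gave 928 to 1343 against 362 to 638 (-1.27 ± 0.14 SE, adjusted p = 9.5e-06). The members that were separated and higher were RBM38 (1.95), CELF1 (1.38, with another probe set at -0.38) and QKI (1.22), which bind RNA in muscle.

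Genes of other cell types differed between the phases as well, and their part in the differences above was not tested. Of 5 erythroid markers 3 were measured, and their summed signal was 10886 to 24283 (median 12977) on fetal and 96.6 to 530.1 (median 215) on postnatal arrays, most of it HBB. ALAS2, the haem synthesis enzyme of red cells, was under 50 on every postnatal array and at least 1.65-fold lower (fitted difference -4.20 ± 0.42 SE, adjusted p = 3.1e-06). The alpha-globin HBA, at 46.4 to 128 against 57.1 to 176, was not called (-0.03 ± 0.29 SE, adjusted p = 0.94). Its fetal mean signal was 90.1, against 14454 for HBB, and whether its probe set reports sheep alpha-globin was not tested. In the wider erythroid list 3 of 9 measured members (21 listed) were called lower (33.3%) and 1 higher (11.1%), against 23.8% and 17.6% of all genes. The median of -0.06 was 0.12 with equal array medians. Of 6 fibroblast and tendon markers 6 were measured and 4 were called lower, and their sum was 12507 to 18456 before and 6954 to 11829 after birth. The fibroblast list had 6 of 16 measured members (22 listed) called lower (37.5%) and 2 higher (12.5%), against 23.8% and 17.6% of all genes. FAP, a surface protease of activated fibroblasts, gave 548 to 868 (median 735) on the fetal arrays and 62.9 to 243 (median 124) on the postnatal arrays (-2.54 ± 0.23 SE, adjusted p = 1.2e-06). PDGFRA, a defining marker, was not called (0.74 ± 0.44 SE, adjusted p = 0.18). The summed markers were thus lower beside the matrix genes, while most members of the wider fibroblast list were not called or were higher, and the part of these cells in the matrix genes was not tested.

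Of 6 endothelial markers 5 were measured and 2 called lower, with sums of 3206 to 6271 before and 1765 to 3308 after birth. In the list 8 of 19 measured members (23 listed) were called lower (42.1%) and 2 higher (10.5%), against 23.8% and 17.6% of all genes. PLVAP, of fenestrated vessels, gave 178 to 367 against 5.70 to 77.6 (8.02-fold, adjusted p = 4.8e-05, 3 of 6 postnatal arrays under 50), and CLDN5, of vessel junctions, was not called (-0.00 ± 0.20 SE, adjusted p = 0.99). For adipocytes 3 of 6 markers were measured and 1 called higher, with sums of 46.1 to 300.0 before and 284 to 1311 after birth. In the list 3 of 12 measured members (22 listed) were called higher (25%) and 1 lower (8.33%), near the 17.6% and below the 23.8% of all genes. The median of 0.56 was -0.14 under scaling to the hybridisation controls. FABP4, the fatty acid-binding protein of fat cells, was called higher (2.37 ± 0.34 SE, adjusted p = 6.8e-05) and ADIPOQ, adiponectin, was not (1.85 ± 0.56 SE, adjusted p = 0.014). FABP4 was not called without the 150 d stage (1.42, adjusted p = 0.022). Sums of the 6 measured T cell and macrophage markers (of 8) overlapped, at 434 to 613 and 407 to 945, with CD3E alone called (lost when any of 8 arrays was left out). The list held 3 called higher (18.75%, near the 17.6% of all genes) and 2 lower (12.5%, against 23.8%) of 16 measured. Its median of -0.18 turned to 0.10 under quantile normalization. Sums of the 2 measured Schwann cell markers (of 6) overlapped, at 277 to 738 and 251 to 504. In the list of Schwann cell and axon genes 9 of 17 measured members (42 listed) were called lower (52.9%) and 2 higher (11.8%), against 23.8% and 17.6% of all genes. Of the cartilage markers 3 of 4 were measured, with sums of 457 to 2393 and 277 to 789, and 1, COL2A1, was called lower, though not without the 230 d stage (-1.37, adjusted p = 0.090). Of the 4 satellite cell markers only 1, MYF5, had a probe set under its symbol, and it did not pass the filter. Nothing can thus be said here of satellite cells.

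Within the phases, where 3 arrays were set against 3, far fewer genes were called. Between 80 d and 120 d, 101 genes (1.43%) were called higher and 42 (0.595%) lower, and between 150 d and 230 d, 73 (1.03%) were called higher and 129 (1.83%) lower. These contrasts share their arrays with the comparison of phases. Of the 15 named genes that were higher after birth, 7 were already called higher between 80 d and 120 d and none between 150 d and 230 d. PDK4, FBP2 and PFKFB4 were among the 7 and were under 50 on all 3 arrays at 80 d, so no size is given for their differences. CKMT2 differed by 3.15 (adjusted p = 1.4e-05) and GPD1 by 1.40 (adjusted p = 0.0046) between 80 d and 120 d in the limma fit, whereas COQ10A differed by 0.41 (adjusted p = 0.43) and ECSIT by 0.12 (adjusted p = 0.82). The named genes thus included some with a graded fetal course and some whose 80 d and 120 d signals were not told apart. Of the 15 that were lower, 2 were called lower between 80 d and 120 d, RGN (-2.57, adjusted p = 4.0e-05) and COL21A1 (-1.62, adjusted p = 0.0017), and 3 between 150 d and 230 d, HBB (-2.42, adjusted p = 0.0097), GPC4 (-1.31, adjusted p = 0.0042) and CDH11 (-1.02, adjusted p = 0.0064). The early myosin MYH3 was also lower at 230 d than at 150 d (-5.04, adjusted p = 1.7e-04), and IGF2 likewise (-2.14, adjusted p = 0.0013).

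**Figure D4:**
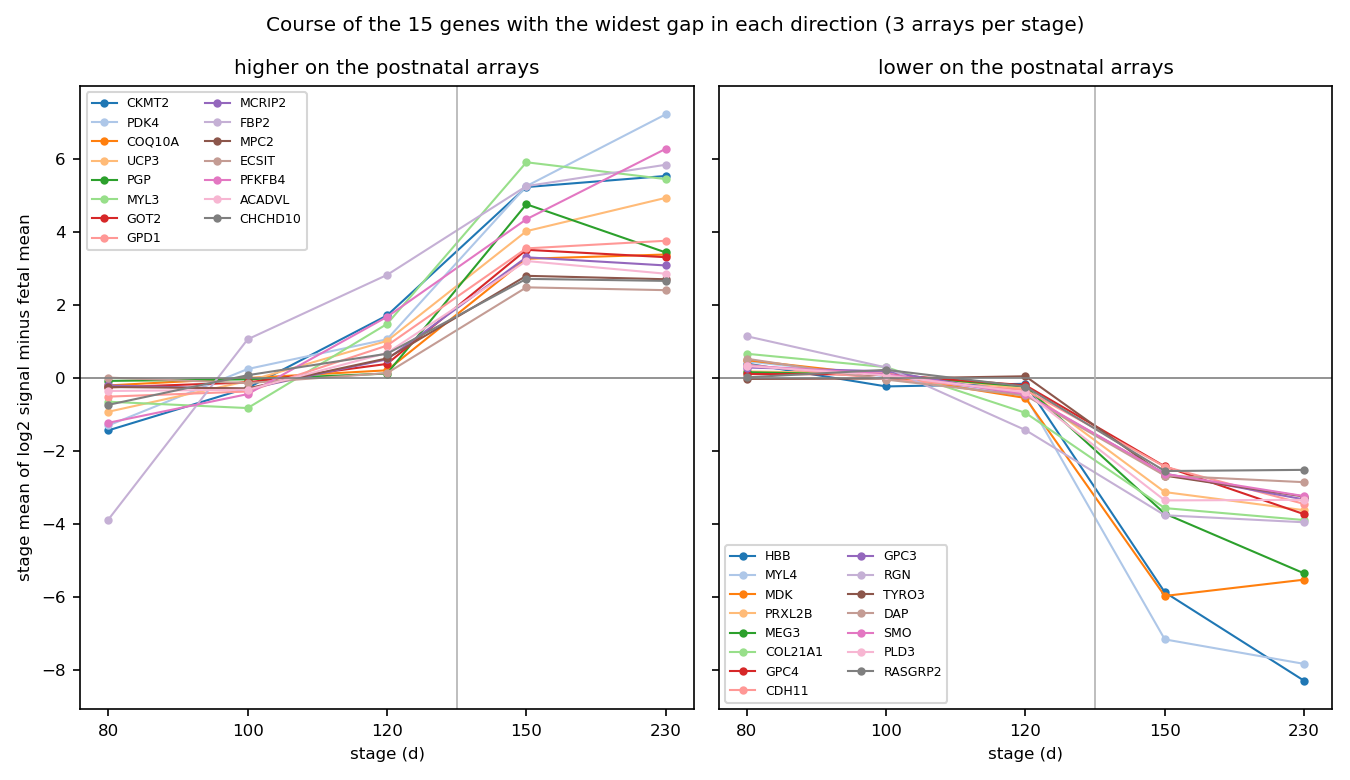
Stage means of log2 signal, relative to the fetal mean of each gene, for the 15 named genes that were higher after birth and the 15 that were lower, at 80 d, 100 d, 120 d, 150 d and 230 d. The 150 d and 230 d means of every line lie on one side of its fetal means, while between 80 d and 120 d CKMT2 covers 3.15 log2 units and ECSIT 0.12. The steep fetal line of FBP2 starts from 80 d signals that were all under 50.

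At the edge of the separation rule the nearest arrays of the phases were almost equal. Just inside it lay NUP37, a nuclear pore protein, with 333 to 468 on fetal and 468 to 617 on postnatal arrays, and UAP1, an enzyme of amino sugar synthesis, with 335 to 505 and 145 to 334. The direction of NUP37 was reversed under scaling to the hybridisation controls. The call of UAP1 (-0.65) was lost when any of 11 arrays or any stage was left out, with equal array medians, under quantile normalization and with either block, and its other probe sets (-0.29 and -0.03) were not called. Just outside it lay GPX1, a glutathione peroxidase, with 586 to 808 and 808 to 4126, and DSTN, an actin-depolymerising protein, with 822 to 1822 and 522 to 822, both of them called by the test (1.39 and -0.97), GPX1 not without the 230 d stage (1.29, adjusted p = 0.014). Separation alone is thus no measure of size. The 8 separated genes that were not called were CHCHD1, CLTA, COG2, HOXA10, LMAN2, MRPL34, TBCE and UBE2Q1. For HOXA10, a patterning factor, the lowest fetal signal of 15.4 stood far below the fetal median of 204, and the difference of 1.32 ± 0.38 (SE, adjusted p = 0.010) missed the threshold.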

How the data were processed

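Muscle RNA of 15 sheep was labelled with biotin and hybridised to the Affymetrix bovine genome array. The intensity values were deposited by the authors as MAS5 signals on a linear scale, for which background was taken from the lowest cells of a grid, perfect match and mismatch probes were combined by the Tukey biweight, and each array was scaled to a target of 200. No source used here names the software version. Scaling fixes the mean of each array, taken without its highest and lowest signals, so a change in total RNA per cell cannot be seen.

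From these values, 112 control probe sets were removed, signals under 0.1 were set to 0.1 (2 values), and log2 was taken. Those that reached 50 on at least 6 arrays were fitted with limma 3.58.1 (R 4.3.3, lmFit and eBayes) to 5 stage means, and the mean of the postnatal stages minus that of the fetal stages was tested two-sided with Benjamini-Hochberg adjustment over all kept probe sets. The call threshold was 0.01. Separation of all 9 from all 6 arrays was counted without a test. Phase was taken from the stage labels. The only replicates are animals, 3 per stage, and this number limits the precision. Probe sets were named from GEO's platform annotation, in which 13292 probe sets had 1 symbol, 86 had several and 10638 had none, with symbols brought up to date through RefSeq. A gene was represented by its probe set of highest mean signal. Probe sets of near-identical genes may share signal.

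The genes described are the 15 with the widest gap in each direction among those called and separated, up to 4 separated members of each list by gap, and defining markers. Other genes, given as exceptions, were chosen after their values were seen. The members and the 38 gene lists (1377 entries, with 937 different genes measured) were chosen with earlier results of these data known. Array measures were compared by exact permutation tests. Alternatives were scaling, offset, filter, model, threshold, and each array or stage left out. On simulated arrays with known differences the fit was tested before use. Python 3.11.15, pandas 2.3.3, scipy 1.17.1 and matplotlib 3.10.9 were used.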

Additional observations from a re-analysis of the deposited data

Results flagged for a closer look

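CHCHD10, a protein of the mitochondrial intermembrane space, had 1 postnatal array that stood apart from the others. The signal of 150 d replicate 1 was 4707, and the next highest was 4134. On the log2 scale its gap to that array was 0.642 of the range of the 6 postnatal arrays, above the critical value of Dixon's test at the 95% level. This was the only such case among 60 groups tested (30 named genes in 2 phases), and chance alone gives about 1 in 20. CHCHD10 remained called higher when this array was left out.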

How the results depend on the processing

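The count of called and separated probe sets depended on scaling. With arrays scaled to the hybridisation controls, 632 were called higher and 7774 lower, and 162 and 4458 were separated. With stage as a random block (correlation 0.181), 1342 and 2253 were called, and among genes described here those that lost their call were ACTA1, AMPD2, AXIN1, CCN2, CD3E, CHRNE, CHRNG, CKB, COL1A1, COMP, CTNNB1, EEF1A2, FBXO32, GATM, GHR, IGFALS, ITGB5, MRPL52, MYOG, P4HB, PHKG2, PRELP, SLC2A1, TNNT2, TPM3 and UAP1. Separation over fewer arrays is easier to meet: without the 150 d stage 2081 and 2720 were separated, and without the 230 d stage 2498 were separated and lower. Leaving out 1 array at a time gave 1870 to 2030 called higher and 3113 to 3314 lower, and 1075 to 1230 separated and higher and 1685 to 1927 separated and lower. All other alternatives stayed within 1.5 times the counts given, among them an offset of 16, other filters on low signals, 2 groups in place of 5 stages, a threshold of 0.05 and each other stage left out. With signals under 50 set to 50, chosen after the data were seen, 1062 and 1619 were separated.

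The 30 named genes kept their direction and call in all 930 alternatives run on them. They had been chosen for their calls and widest gaps in these same data, so this outcome followed largely from the choice. Over 13 other probe sets of these genes, 11 gave the same call, that of HBB missed the threshold (-1.40, adjusted p = 0.015) and that of RGN reversed (0.41, adjusted p = 0.51), and the cause was not tested. Of 2356 counts over gene lists, 2121 stayed within 1.5 times the count given and 235 moved.

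Animals differed between the stages, so replicate numbers did not pair animals. Deviations of arrays with the same number correlated from -0.058 to 0.241 (median 0.047, 30 pairs), and not every such pair exceeded 0.1. For other numbers the range was -0.207 to 0.153 (median -0.026, 60 pairs). The highest values were among replicate 1 arrays, at 0.241 (80 d with 100 d), 0.204 (100 d with 120 d) and 0.191 (80 d with 120 d). What these arrays share was not tested. With the replicate number as a block, 2106 probe sets were called higher and 3454 lower. With 3 animals per stage, a sheep sample on a cattle array and birth, age and diet changing together, these cannot be told apart as sources of a difference.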

Other observations

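Genes that respond to glucocorticoids, fasting or disuse were called higher more often than lower after birth. Of the list of glucocorticoid, FOXO and atrophy targets, 13 of 20 measured members (30 listed) were called higher by limma (17.6% of all genes) and none lower, 5 were separated, and the median difference was 1.02. Under scaling to the hybridisation controls 7 were called higher and 4 lower, with a median of 0.33. Besides PDK4, CEBPB, a transcription factor of stress and fat cell genes, gave 26.0 to 97.8 (median 55.7) on the fetal arrays and 249 to 1392 (median 448) on the postnatal arrays (3.15 ± 0.20 SE, adjusted p = 6.1e-08). FKBP5, a chaperone of steroid receptors, was under 50 on all 9 fetal arrays and 54.2 to 258 on postnatal arrays, which is at least 3.03-fold higher. With no fetal array at 50, FKBP5 could pass the filter only through the postnatal arrays. Its direction and separation were thus fixed in advance, and its place among the 13 called and 5 separated is no support. ZBTB16, a transcription factor induced by steroids, had 7 of 9 fetal arrays under 50 and 83.0 to 212 on postnatal arrays (2.22 ± 0.27 SE, adjusted p = 2.0e-05). It also passed the filter mainly through the postnatal arrays. FBXO32, the ubiquitin ligase atrogin-1, was called higher (1.95 ± 0.29 SE, adjusted p = 9.0e-05), but this rested on the 230 d stage. Without that stage it differed by -0.43, adjusted p = 0.36, and between 150 d and 230 d it differed by 4.75 (adjusted p = 1.3e-04). The muscles were taken after euthanasia, and the part of handling was not tested.

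Defence against oxidants was called higher for 15 of 32 measured members (41 listed, 46.9%) and lower for 3 (9.38%). Among all genes these shares were 17.6% and 23.8%. In the list 9 were separated and higher and 2 separated and lower. The median of 0.51 was -0.18 under scaling to the hybridisation controls. The mitochondrial enzymes PRDX3, a peroxiredoxin, and SOD2, a superoxide dismutase, were higher (2.19 ± 0.19 SE, adjusted p = 8.2e-07 and 1.95 ± 0.18 SE, adjusted p = 1.8e-06), as were GPX3, a secreted glutathione peroxidase, and NQO1, a quinone reductase (2.76 ± 0.19 SE, adjusted p = 1.5e-07 and 2.59 ± 0.26 SE, adjusted p = 3.8e-06). The enzymes of the endoplasmic reticulum GPX7 and PRDX4 were separated and lower (-1.95 ± 0.17 SE, adjusted p = 1.2e-06 and -0.84 ± 0.11 SE, adjusted p = 3.3e-05), PRDX4 without a call when the 230 d stage was left out (-0.51, adjusted p = 0.012).

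Chaperones were called in both directions at shares near those of all genes (17.6% higher and 23.8% lower). Of 38 measured members (45 listed), 9 were called higher and 8 lower, with a median of 0.15 that was -0.54 under scaling to the hybridisation controls. The small heat shock proteins of muscle HSPB6 and HSPB8 were separated and higher (2.64 ± 0.21 SE, adjusted p = 5.7e-07 and 1.19 ± 0.13 SE, adjusted p = 9.1e-06), and the chaperones of the endoplasmic reticulum CALR and P4HB were lower (-1.43 ± 0.20 SE, adjusted p = 6.2e-05 and -0.70 ± 0.13 SE, adjusted p = 5.5e-04), P4HB without a call when the 230 d stage was left out (-0.40, adjusted p = 0.046).

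Of hormone receptors and related genes, 4 of 15 measured members (31 listed) were called higher and 4 lower, shares near those of all genes (17.6% and 23.8%), with a median of 0.15 that was -0.54 under scaling to the hybridisation controls. NR4A1, an orphan nuclear receptor induced by exercise, gave 45.3 to 127 (median 86.4) on the fetal arrays and 224 to 415 (median 353) on the postnatal arrays (2.02 ± 0.19 SE, adjusted p = 2.3e-06). NR2F2 and NR2F1, orphan receptors of embryonic mesenchyme, and THRA, a thyroid hormone receptor, were separated and lower (-0.92 ± 0.12 SE, adjusted p = 2.5e-05, -1.08 ± 0.16 SE, adjusted p = 7.2e-05 and -0.62 ± 0.12 SE, adjusted p = 7.7e-04). Of the circadian clock 3 of 7 measured members (19 listed) were called higher (42.9%, against 17.6% of all genes) and none lower. None was separated, and the median of 0.33 was -0.36 under scaling to the hybridisation controls. NR1D1, a repressor of the clock, differed by 1.78 ± 0.21 (SE, adjusted p = 1.4e-05), and the time of day of sampling is not in the labels. Of sterol and fatty acid synthesis, 2 of 24 measured members (35 listed) were called higher (8.33%) and 4 lower (16.7%), both below the shares of all genes. None was separated, and the median was -0.20.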
